A study of Mus musculus with 2 samples.

Results

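The 8 genes described here carry the type I interferon signal from the cell surface to the nucleus and back. They are the receptor genes Ifnar1 and Ifnar2, the receptor-bound kinases Jak1 and Tyk2, the transcription factor genes Stat2, Irf9 and Irf7, and the feedback inhibitor Socs1. They were chosen by name, as 8 of the 32285 genes counted, and all 8 were measured in every library. Their unique molecular identifiers (UMIs, tags that mark single captured transcripts) were summed in 6 classes of cell barcodes set by marker UMIs. CD8 T barcodes held a UMI of Cd3e and of Cd8b1, CD4 T barcodes of Cd3e and Cd4, and B barcodes of Cd79a and Ms4a1. Plasma barcodes held at least 5 UMIs of Mzb1, monocyte or macrophage barcodes at least 5 of Lyz2, and neutrophil barcodes at least 20 of S100a8 and S100a9 together.

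The study asked how the autoimmunity-associated allele of the tyrosine phosphatase gene Ptpn22 alters the immune response to a persistent virus. PEP-WT mice (C57BL/6 with the wild type Ptpn22 gene) and PEP-619WW mice (C57BL/6 homozygous for the alternative Ptpn22 allele, introduced by CRISPR/Cas9) all received LCMV-cl13 (lymphocytic choriomeningitis virus clone 13) intravenously, at 1000000 PFU. The mice were 6 to 12 weeks old, and on day 8 the spleens of 4 to 5 age- and sex-matched mice per genotype were pooled and sorted for live CD45+ cells, so the spread between mice was lost and no uninfected library was analysed here. For each genotype 2 deposited tables of 10x Genomics 3′ counts were used, called run 1 and run 2 here, and the sources used here do not give how the runs relate. The contents of run 2 were unlike those of run 1. Its PEP-WT table held 2 B and 0 plasma barcodes of 9539, against 6937 and 2361 of 14821 in run 1. That run 2 came from these infected spleens is thus not established, so its ratios are those of the deposited tables labelled with these genotypes. With 1 library per genotype and run there was no replicate check, so no test was made and all intervals cover counting error only. The 2 runs were kept apart and are not replicates of each other.

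Run 1 held 14821 barcodes and 77916082 UMIs for PEP-WT and 8576 barcodes and 56745578 UMIs for PEP-619WW. In run 2 the libraries held 9539 barcodes with 70500076 UMIs and 11029 barcodes with 55504449 UMIs, and the barcode numbers are those the study's methods give. Median UMIs per barcode ranged from 2832 to 4837 over the 4 libraries, and any pair of libraries shared 19 to 49 barcodes. The labels name liver, a human T cell line and tumor-infiltrating cells, whereas the protocol text describes splenocytes. The markers of each class were all detected in it in run 1. Each marker list holds genes of its own gate, and markers of other classes were detected too, so this does not check the tissue. The 4 hepatocyte markers summed to 0 to 0.05 UMIs per 1000000 in the 6 classes of run 1, in cells sorted for CD45 and gated on immune markers. Run 2 held 431 PEP-WT and 44 PEP-619WW barcodes with at least 3 of 6 melanocyte genes and almost no PEP-WT lymphocytes, whereas run 1 held 0 and 0 such melanocyte barcodes. The allele changes a residue of the protein, so counts of 3′ ends do not check the genotype.

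Type I interferons bind a receptor made of the IFNAR1 and IFNAR2 chains, and the kinases TYK2 and JAK1 on the chains then phosphorylate STAT proteins. STAT2 joins another STAT protein and IRF9 in the complex ISGF3, which binds interferon-stimulated response elements in the promoters of its targets. Among these targets are IRF7, a transcription factor that amplifies interferon production, and SOCS1, which blocks the kinases. In LCMV-cl13 infection type I interferon is known both to restrict the virus and to sustain immunosuppression.

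The sequences shown are the promoter stretches of the members whose window held a core of the ISGF3 response element, Stat2 and Socs1. They were taken by that match and not by the ratio between the genotypes. The windows ran from 250 bases before to 50 bases after the RefSeq gene start (GRCm38.p6), and both strands were searched for that core (GAAA, any 2 bases, GAAA, with overlapping matches allowed) and for TTCNNNGAA, the core of a gamma-activated site. Letters in capitals match the ISGF3 core on either strand.
Stat2, chr10:128270248-128270325, + strand, 250 to 173 bases before the start: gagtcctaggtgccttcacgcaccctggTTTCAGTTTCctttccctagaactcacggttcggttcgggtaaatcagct
Socs1, chr16:10785564-10785659, − strand, 123 to 28 bases before the start: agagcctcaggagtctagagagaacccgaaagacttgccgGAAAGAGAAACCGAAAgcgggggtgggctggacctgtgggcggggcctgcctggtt
The Stat2 stretch held 1 match, read on the reverse strand, and the Socs1 stretch held 2 overlapping matches. This core was present in 3.44% of all 32851 promoter windows of 300 bases. No match lay in the windows of the other 6 members, 2 windows for Irf9 included, which says only that these letters are not in them. TTCNNNGAA, found in 8.30% of all windows, lay in those of Ifnar1 and Ifnar2 and in none of the other 6. A match is a description, not a binding site.

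The level of a gene in a class was its summed UMIs per 1000000 UMIs of that class (CPM), with an exact 95% Poisson interval, and the genotypes were compared by the log2 ratio of CPM, PEP-619WW over PEP-WT, with an exact 95% interval. A ratio counted as past the fold when it reached 1.5-fold in either direction with at least 50 UMIs in both genotypes together. In run 1 the classes held, for PEP-WT and PEP-619WW, 1439 and 953 CD8 T, 361 and 261 CD4 T, 6937 and 3144 B, 2361 and 1893 plasma, 1600 and 1236 monocyte or macrophage, and 806 and 864 neutrophil barcodes. A barcode could pass several gates, and in run 1 this held for 16.6% (PEP-WT) and 20.8% (PEP-619WW) of all barcodes. Within the classes it held for 73.6% and 75.7% of neutrophil, 67.4% and 59.8% of plasma and 55.7% and 64.7% of monocyte or macrophage barcodes. In the CD8 T, CD4 T and B classes it held for 25.1% to 33.8%. The classes are thus not separate sets of barcodes. The plasma and B gates shared 1422 and 831 barcodes, and the monocyte or macrophage and neutrophil gates shared 554 and 562. No doublet caller was run.

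In run 1 the receptor and kinase genes and Irf9 lay within 1.5-fold between the genotypes in all 6 classes, whereas Irf7 was lower in PEP-619WW in all 6, Socs1 in 4 and Stat2 in 2. Irf7 differed most, from 1.65-fold lower in CD4 T barcodes to 2.44-fold lower in CD8 T barcodes. No member was past the fold in the other direction. The plot of member levels shows each class with its interval.

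**Figure D1:**
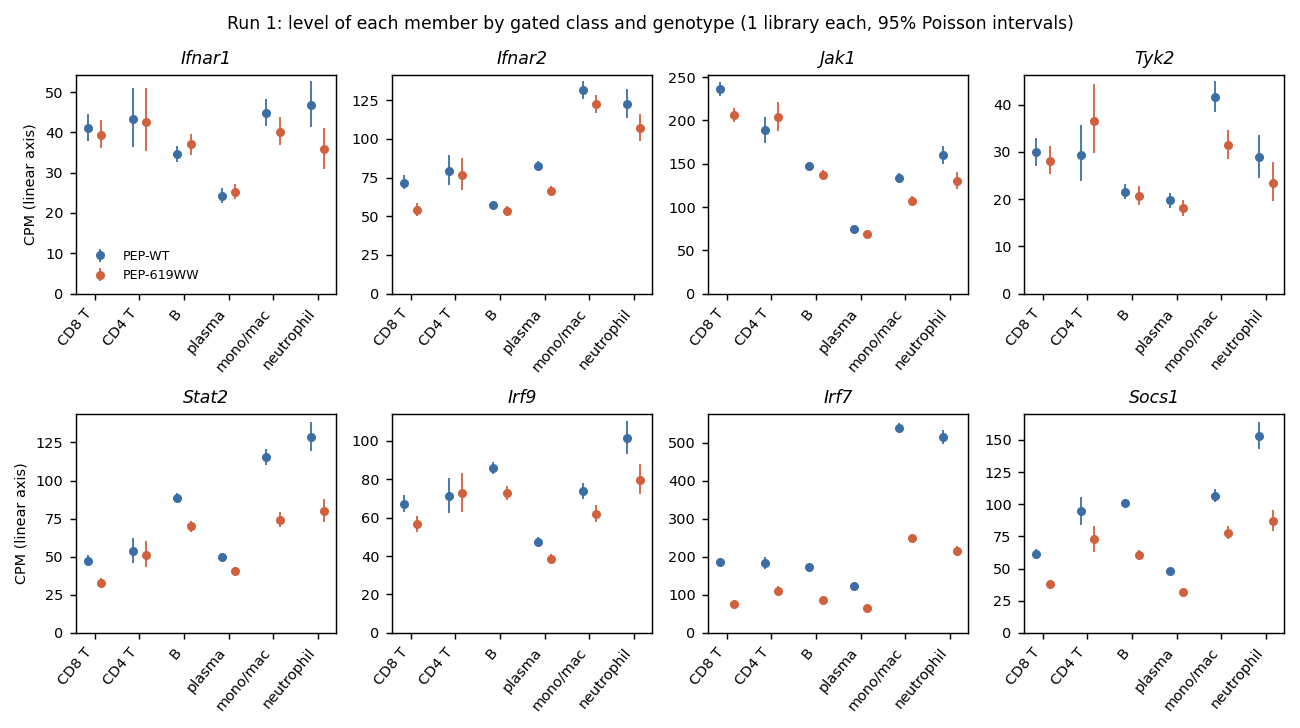
Level of each of the 8 members (CPM, linear axis from 0) in the 6 classes of run 1, PEP-WT in blue and PEP-619WW in orange, 1 library each, bars being exact 95% Poisson intervals. The orange Irf7 points lie below the blue ones in every class (540 against 249.9 in monocyte or macrophage barcodes), while the Ifnar1 points nearly coincide in CD8 T, CD4 T and plasma barcodes.

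Ifnar1 (ENSMUSG00000022967, chr16:91485238-91507441, + strand), the receptor chain that docks TYK2, was the member whose level varied least, 1.93-fold from the lowest to the highest of the 12 run 1 profiles (6 classes by 2 genotypes). In PEP-WT it measured 46.8 CPM in neutrophil, 44.8 in monocyte or macrophage, 43.2 in CD4 T and 41.2 in CD8 T barcodes, with overlapping intervals, then 34.6 in B and 24.3 in plasma barcodes. In PEP-619WW it measured 35.8, 40.2, 42.6, 39.5, 37.0 and 25.2 CPM in the same order of classes. Plasma barcodes were the lowest in both genotypes. The log2 ratio lay between −0.16 and 0.10 in 5 classes, and in neutrophil barcodes it was −0.39 (95% interval −0.66 to −0.11).

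Ifnar2 (ENSMUSG00000022971, chr16:91372783-91405589, + strand), the ligand-binding chain that docks JAK1, was highest in the myeloid classes. PEP-WT levels were 131 CPM in monocyte or macrophage and 123 in neutrophil barcodes, whose intervals overlapped, against 82.3 in plasma, 79.2 in CD4 T, 71.8 in CD8 T and 57.3 in B barcodes. In PEP-619WW these levels were 123, 107, 66.6, 76.6, 54.1 and 53.6 CPM. All 6 PEP-619WW values were below the PEP-WT values, with intervals of the ratio below 0 in CD8 T (−0.41, −0.55 to −0.27), plasma (−0.31, −0.39 to −0.22), monocyte or macrophage (−0.10, −0.20 to −0.01) and neutrophil barcodes (−0.20, −0.36 to −0.03). With barcodes of 1 gate the CD8 T ratio reached −0.63, past the fold.

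Jak1 (ENSMUSG00000028530, chr4:101152367-101265282, − strand), the kinase shared by many cytokine receptors, was highest in T barcodes. PEP-WT levels were 236 CPM in CD8 T, 188 in CD4 T, 160.1 in neutrophil, 147 in B, 133 in monocyte or macrophage and 74.3 in plasma barcodes, and each neighbour in this order was apart except neutrophil and B. PEP-619WW levels were 206, 204, 130.2, 137, 107 and 69.3 CPM. The ratio was −0.32 (−0.42 to −0.22) in monocyte or macrophage and −0.30 (−0.44 to −0.15) in neutrophil barcodes, −0.20 in CD8 T barcodes and between −0.10 and 0.11 in the other 3 classes. Tyk2 (ENSMUSG00000032175, chr9:21104068-21131243, − strand), the partner kinase, measured 41.6 CPM in PEP-WT and 31.4 in PEP-619WW monocyte or macrophage barcodes, a ratio of −0.41 (−0.59 to −0.23). In the other 5 classes its PEP-WT levels were 19.7 to 29.9 CPM and its PEP-619WW levels 18.1 to 36.5, and every interval of the ratio held 0.

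Stat2 (ENSMUSG00000040033, chr10:128270559-128292849, + strand), the STAT subunit of ISGF3, measured 129 CPM in PEP-WT and 79.8 in PEP-619WW neutrophil barcodes and 116 and 74.4 in monocyte or macrophage barcodes. These were its highest levels among the 6 classes in both genotypes, and here the PEP-619WW level was past the fold, with ratios of −0.69 (−0.86 to −0.51) and −0.63 (−0.75 to −0.52). In lymphocytes the PEP-WT and PEP-619WW levels were 88.8 and 70.0 CPM in B, 53.8 and 51.2 in CD4 T, 49.6 and 40.8 in plasma and 47.4 and 32.6 in CD8 T barcodes. The CD8 T ratio of −0.54 (−0.72 to −0.36), 1.45-fold lower in PEP-619WW, was the nearest that did not reach the fold, and the CD4 T interval held 0. Centred on the median ratio of all genes in the class, the myeloid ratios were −0.56 and −0.58 in monocyte or macrophage and neutrophil barcodes, just inside 1.5-fold.

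Irf9 (ENSMUSG00000002325, chr14:55603571-55610030, + strand), the DNA-binding subunit of ISGF3, was lower in PEP-619WW by less than the fold in 5 classes. Its PEP-WT and PEP-619WW levels were 102 and 79.8 CPM in neutrophil, 85.7 and 72.7 in B, 73.7 and 61.9 in monocyte or macrophage, 67.2 and 56.7 in CD8 T and 47.1 and 38.5 in plasma barcodes. The ratios of these 5 classes ran from −0.35 to −0.24, and all 5 intervals lay below 0. CD4 T barcodes held 71.1 and 72.7 CPM, a ratio of 0.03 (−0.25 to 0.31).

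Irf7 (ENSMUSG00000025498, chr7:141262706-141266481, − strand), the amplifier of interferon production, varied most, 8.41-fold over the 12 profiles. Monocyte or macrophage barcodes held 540 CPM (529 to 552) in PEP-WT and 249.9 (241 to 259) in PEP-619WW, and neutrophil barcodes 516 (497 to 535) and 215 (203 to 228). Levels in CD8 T barcodes were 188 (180.5 to 195) and 76.8 (72.0 to 81.8), in B barcodes 174 (170.1 to 179) and 86.3 (82.5 to 90.3), and in plasma barcodes 124 (119.8 to 128) and 64.2 (61.3 to 67.3). No interval of one genotype reached that of the other in these classes, nor in CD4 T barcodes with 184 (169 to 199) and 111 (99.3 to 124). The log2 ratio was −1.29 (−1.40 to −1.18) in CD8 T, −1.26 (−1.36 to −1.16) in neutrophil, −1.11 (−1.17 to −1.05) in monocyte or macrophage, −1.01 (−1.09 to −0.94) in B, −0.95 (−1.03 to −0.86) in plasma and −0.72 (−0.92 to −0.52) in CD4 T barcodes. The share of tested genes with a lower ratio than Irf7 was 0.747% in CD8 T, 0.985% in B, 1.004% in monocyte or macrophage, 1.13% in neutrophil, 1.40% in plasma and 3.92% in CD4 T barcodes.

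The order of the classes by Irf7 level differed between the genotypes in the place of CD8 T barcodes. In PEP-WT they lay above B barcodes and the CD4 T interval overlapped both, whereas in PEP-619WW CD4 T barcodes lay above B and B above CD8 T, with no overlap. All these levels were under that of the erythroid gate of the same library, described further on (258 and 122 CPM). No order of expression among lymphocytes is thus read from them. The monocyte or macrophage and neutrophil intervals overlapped in PEP-WT and were apart in PEP-619WW. Barcodes of 1 gate gave a CD4 T ratio of −0.22, and barcodes thinned to 1000 UMIs gave −0.50, both inside 1.5-fold. In the other 5 classes Irf7 was past the fold under every alternative run on its ratio, 9 in CD8 T barcodes and 8 in the other 4 classes.

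Socs1 (ENSMUSG00000038037, chr16:10782240-10785536, − strand), the inhibitor of JAK kinases, measured 153 CPM in PEP-WT and 86.9 in PEP-619WW neutrophil barcodes, 101 and 60.7 in B, 61.1 and 37.8 in CD8 T and 48.3 and 31.7 in plasma barcodes. The ratios in these 4 classes were past the fold, at −0.81 (−0.98 to −0.65), −0.73 (−0.83 to −0.64), −0.69 (−0.86 to −0.53) and −0.60 (−0.73 to −0.48). Plasma barcodes, 1.52-fold lower in PEP-619WW, were the nearest that reached the fold and went inside 1.5-fold with barcodes of 1 gate (−0.20), with immunoglobulin, hemoglobin and mitochondrial genes left out of the total (−0.55) and with each barcode weighted the same (−0.52). Monocyte or macrophage barcodes held 106 and 78.0 CPM (−0.45, −0.56 to −0.34) and CD4 T barcodes 94.3 and 72.7 (−0.38, −0.64 to −0.12). The PEP-619WW level was the lower one in all 6 classes.

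**Figure D2:**
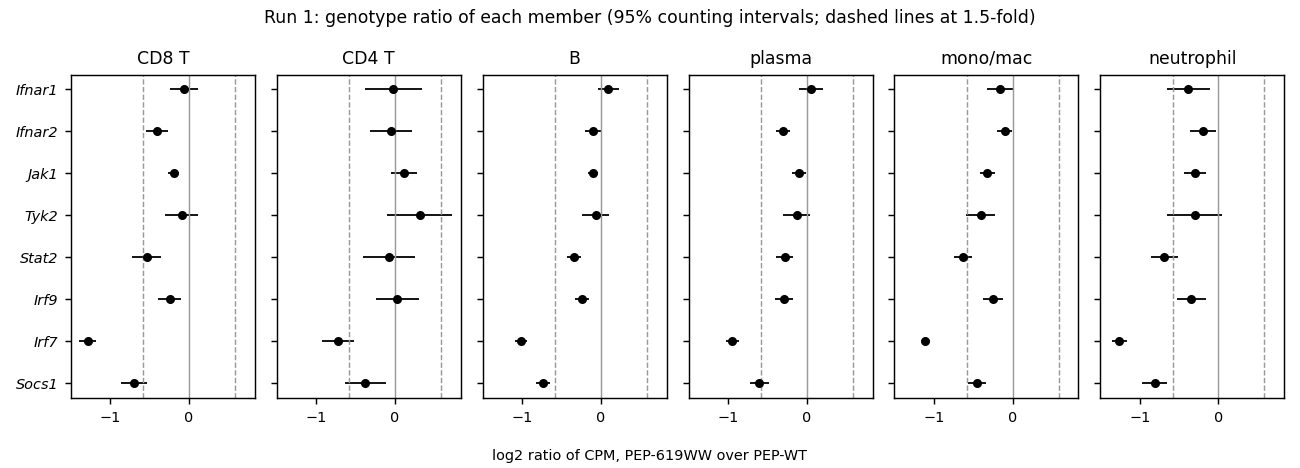
Log2 ratio of CPM, PEP-619WW over PEP-WT, of each member in the 6 classes of run 1, with exact 95% intervals for counting error. Dashed lines mark 1.5-fold. Irf7 lies left of the line in all 6 classes (−0.72 to −1.29), and Ifnar1, Ifnar2, Jak1, Tyk2 and Irf9 lie between the lines in every class.

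Of the 48 pairs of member and class in run 1, 12 were past the fold with the lower level in PEP-619WW and 0 with the higher level there. The share of all tested genes that was lower past the fold was 4.69% in CD8 T (2 of 8 members), 6.66% in CD4 T (1 of 8), 3.95% in B (2 of 8), 4.28% in plasma (2 of 8), 5.14% in monocyte or macrophage (2 of 8) and 9.55% in neutrophil barcodes (3 of 8). The share that was higher was 3.91%, 6.38%, 5.52%, 4.54%, 3.75% and 3.88% in the same classes. The median ratio of all tested genes lay between −0.11 and 0.01, lowest in neutrophil barcodes.

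RNA of other cells was present in every class. Barcodes with 5 or more hemoglobin UMIs (Hba-a1 and Hbb-bs) made up 3.70% to 6.63% of the 6 PEP-WT classes and 0.766% to 6.94% of the PEP-619WW classes of run 1. Hbb-bs, a beta globin gene, was lower in PEP-619WW in each of the 6 classes, as Irf7 was, at 883 to 1968 CPM in PEP-WT and 30.1 to 675 in PEP-619WW, and in CD4 T barcodes at 1231 and 30.1. The list of 5 neutrophil markers was higher in PEP-619WW in B (1351 and 2740.3 CPM), plasma (988 and 1763), monocyte or macrophage (23969 and 37722) and neutrophil barcodes (76435 and 98061), and lower in CD8 T (2090.03 and 1417) and CD4 T barcodes (1172 and 1088). The list of 5 monocyte or macrophage markers was lower there in CD8 T (832 and 652) and CD4 T barcodes (715 and 398). In B barcodes that list was higher (612 and 648), and in plasma barcodes nearly the same (605 and 601). Their part in the member ratios was not tested, except that leaving out these hemoglobin-positive barcodes gave 12 pairs lower and 0 higher, with Irf7 at −0.60 in CD4 T and −1.10 in monocyte or macrophage barcodes.

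Narrower gates gave the same order of the genotypes for Irf7 in 5 of 6 subsets of the CD8 T, monocyte or macrophage and neutrophil gates of run 1. The exception was the smallest, monocyte or macrophage barcodes with at least 3 UMIs of C1qa and no Ly6c2 (21 and 9), with 572 (452 to 713) and 698 (509 to 934) CPM, a ratio of 0.29 (−0.27 to 0.84) that held 0. CD8 T barcodes with a Gzmb UMI, an effector gene (952 PEP-WT and 826 PEP-619WW barcodes), held 179.95 and 76.6 CPM, a ratio of −1.23 (−1.35 to −1.11). CD8 T barcodes with a Lef1 UMI, a gene of naive and memory T cells, and no Gzmb (298 and 71) held 232 and 72.1, a ratio of −1.69 (−2.10 to −1.29). In the latter Irf9 was also past the fold, at 81.7 and 41.6 CPM (−0.97, −1.55 to −0.43).

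Monocyte barcodes with Ly6c2, a gene of inflammatory monocytes, and no C1qa (1010 and 769) held 562 and 232 CPM of Irf7 (−1.28, −1.36 to −1.19) and 131 and 82.1 of Stat2 (−0.67, −0.83 to −0.52). Neutrophil barcodes with an Ltf or Camp UMI, genes of immature granules (184 and 395), held 349 and 174 CPM of Irf7 (−1.01), 108 and 68.1 of Socs1 (−0.67) and 43.4 and 27.9 of Ifnar1 (−0.64, −1.11 to −0.16). Stat2 was within the fold in them, at 79.5 and 68.1 CPM (−0.22, −0.55 to 0.10). Those without (622 and 469) held 587 and 263 of Irf7 (−1.16), 149.6 and 93.3 of Stat2 (−0.68) and 172 and 109 of Socs1 (−0.66). The Ltf or Camp barcodes made up 22.8% (PEP-WT) and 45.7% (PEP-619WW) of their neutrophil gates, and Irf7 was lower in PEP-619WW within each. Members lower past the fold numbered 2 of 8 in each CD8 T subset (background 4.57% with Gzmb and 7.59% with Lef1), 2 in Ly6c2 barcodes (7.41%), 3 in Ltf or Camp barcodes (11.7%) and 3 in the others (7.41%). CD4 T barcodes with a Foxp3 UMI (16 and 18) held 12 and 19 Irf7 UMIs, under the minimum of 50, and went the other way at 41.3 and 121 CPM, a ratio of 1.56 (0.44 to 2.73). The median ratio of the 12 interferon targets tested in them was 0.81, against −0.29 for all tested genes.

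Plasmacytoid dendritic barcodes (at least 2 UMIs of Siglech, no Cd79a or Cd3e), the main interferon producers, had the highest Ifnar1 and Ifnar2 levels of the 10 gates shown in the plot of further gates, and in PEP-WT the highest Irf7 level. The 32 PEP-WT and 16 PEP-619WW barcodes held 202 (148 to 268) and 274 (183 to 393) CPM of Ifnar1 and 395 (318 to 484) and 519 (391 to 676) of Ifnar2. Irf7 measured 751 (643 to 870) and 330.5 (230.2 to 459.6) CPM there, a ratio of −1.18 (−1.75 to −0.65), whereas Stat2 measured 176 and 208 (0.24, −0.58 to 1.02). Cox6a2 and Ccr9, markers the gate did not use, were at 429 and 437 CPM in PEP-WT and 425 and 661 in PEP-619WW. In run 2 the 232 PEP-619WW plasmacytoid dendritic barcodes held 246 CPM of Ifnar1 and 407 of Ifnar2 but 109 of Irf7, and only 5 PEP-WT barcodes passed.

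Natural killer barcodes (Ncr1 without Cd3e) had the highest Jak1 level of these gates, 354 (295 to 421) CPM in 77 PEP-WT and 483 (394 to 587) in 37 PEP-619WW barcodes, and 606 (574 to 640.1) in 466 PEP-619WW barcodes of run 2. Conventional dendritic barcodes (25 and 19) held 491 and 341 CPM of Irf7, a ratio of −0.53 (−0.95 to −0.12). The erythroid gate (at least 100 hemoglobin UMIs and no Ptprc UMI, 584 and 49 barcodes) held 9.34 and 4.43 CPM of Ifnar1 and 4.36 and 2.22 of Tyk2, the lowest levels of these genes in any gate of run 1 except for Tyk2 in PEP-619WW plasmacytoid dendritic barcodes (0 UMIs). The PEP-619WW erythroid values rested on only 2 UMIs of Ifnar1 and 1 of Tyk2, so their rank is uncertain. For Irf7 it held 258 and 122 CPM, a ratio of −1.08 (−1.52 to −0.68), where the median ratio of all tested genes was 0.98. In this gate the ratios of Ifnar2 (0.81), Jak1 (0.83) and Stat2 (0.66) were above 1.5-fold, and nearer to that median. The Irf7 levels of the 4 lymphocyte classes (64.2 to 188 CPM) lay at or below those of the erythroid gate in the same library, so Irf7 in them could not be told apart from RNA of other cells by level alone. Those of the monocyte or macrophage and neutrophil classes lay above it. The same limit holds for Irf9 in plasma barcodes of both genotypes, with 55.4 CPM in either erythroid gate. In PEP-619WW it also holds for Ifnar2 in CD8 T, B and plasma barcodes (erythroid gate 70.9 CPM) and Jak1 in plasma barcodes (75.3). There it holds too for Stat2 in CD8 T and plasma barcodes (44.3). These PEP-619WW erythroid levels rested on 20 to 34 UMIs.

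**Figure D3:**
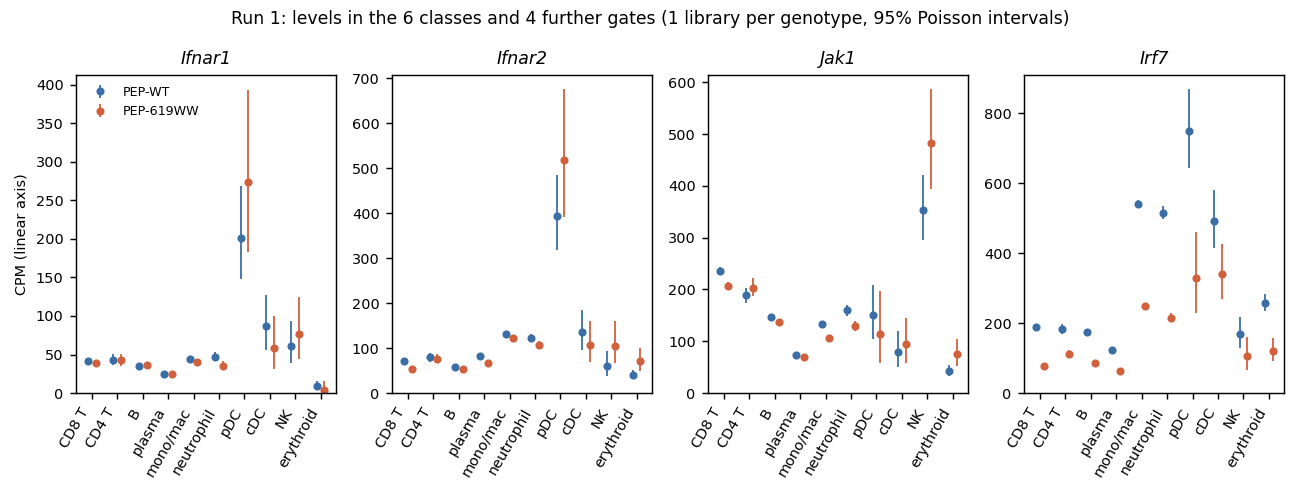
Levels (CPM, linear axis from 0) of Ifnar1, Ifnar2, Jak1 and Irf7 in run 1 in the 6 classes and in plasmacytoid dendritic (pDC), conventional dendritic (cDC), natural killer (NK) and erythroid barcodes, with exact 95% Poisson intervals. The pDC points are the highest for Ifnar1, Ifnar2 and PEP-WT Irf7, the NK points are the highest for Jak1, and erythroid barcodes are the lowest for Ifnar1.

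Per barcode, thinned to 1000 UMIs with shallower barcodes left out, an Irf7 UMI was found in 46.8% (PEP-WT) and 23.2% (PEP-619WW) of monocyte or macrophage barcodes and in 45.1% and 20.2% of neutrophil barcodes. Unthinned shares were 89.3% and 68.0%, and 81.9% and 56.5%. In lymphocytes the thinned shares were 16.6% and 7.32% in CD8 T, 16.5% and 10.7% in CD4 T, 16.6% and 8.41% in B and 11.0% and 6.83% in plasma barcodes. The erythroid gate gave 20.7% (17.2 to 24.6) and 17.4% (7.82 to 31.4), and the lymphocyte shares lay below that of the same library, so no expression is read from them. The myeloid shares lay above it, in PEP-619WW within its interval. Whether erythroid barcodes hold Irf7 transcripts of their own was not tested. Of the thinned PEP-WT erythroid barcodes 0.813% held an Ifnar1 UMI and 2.24% a Socs1 UMI, against 4.04% and 7.24% in PEP-WT CD8 T barcodes. Median UMIs per barcode were 1882.5 and 4078 in the erythroid gate.

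Barcodes were then split by their UMIs of 42 interferon target genes, without the members. Those with 5 or more target UMIs of 1000 made up 96.0% (PEP-WT) and 85.8% (PEP-619WW) of monocyte or macrophage barcodes, and 84.7% and 69.3% of CD8 T barcodes. This bin is open-ended and the targets were themselves lower in PEP-619WW, so it does not match barcodes for target level and the monocyte or macrophage shares stayed close to those of the whole gate. In it, the share with an Irf7 UMI was 48.3% (45.7 to 50.8) and 25.3% (22.6 to 28.1) in monocyte or macrophage, 46.8% (43.2 to 50.5) and 21.6% (18.6 to 24.96) in neutrophil, 18.5% and 9.65% in CD8 T and 17.5% and 9.72% in B barcodes. In CD4 T barcodes the shares were 17.9% and 12.2%. The lymphocyte shares are given as values, with no expression read from them. Among myeloid barcodes with 2 to 4 target UMIs the shares were 10.3% (3.89 to 21.2, 58 barcodes) and 11.4% (6.79 to 17.6, 149) in monocyte or macrophage and 6.45% and 13.8% in neutrophil barcodes (31 and 123), with overlapping intervals. Ifnar1 showed no such split, at 5.19% and 4.78% of monocyte or macrophage barcodes with 5 or more.

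**Figure D4:**
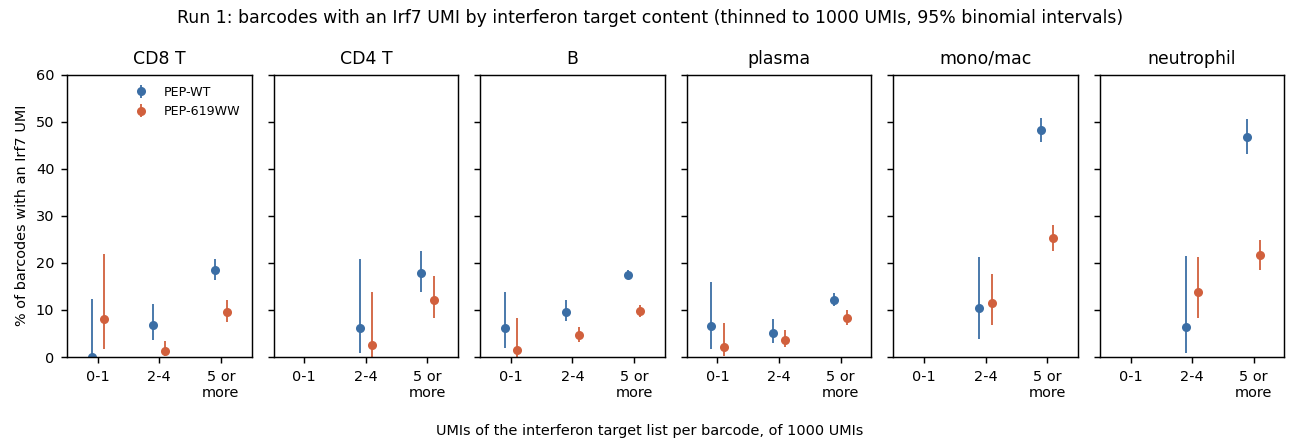
Percent of run 1 barcodes, thinned to 1000 UMIs, with an Irf7 UMI by their number of interferon target UMIs, for each class and genotype, with exact 95% binomial intervals. Bins under 20 barcodes are not shown. At 5 or more target UMIs the PEP-WT points lie above the PEP-619WW points in all 6 classes (48.3% against 25.3% in monocyte or macrophage barcodes).

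The interferon target list lay in the same direction as Irf7 in run 1. It was chosen with earlier results of these data known. It holds Isg20, Oasl2, Ifi44, Isg15 and Ifi27l2a, which the study reported as higher in PEP-WT CD4 T cells, so its direction is a description only. Some of its genes also answer to interferon gamma. Of 42 genes, 25 were lower past the fold in CD8 T, 5 in CD4 T, 27 in B, 24 in plasma, 22 in monocyte or macrophage and 36 in neutrophil barcodes, against the backgrounds given for these classes, and 0 were higher. The median ratio of the list was −0.68, −0.28, −0.65, −0.62, −0.61 and −0.84 in these classes. Isg15, the ubiquitin-like modifier, was lower in all 6 classes, at 1505 and 394 CPM in neutrophil barcodes (−1.93, −2.00 to −1.86) and 339 and 217 in CD4 T barcodes (−0.65, −0.79 to −0.50). Ifi35, Ifi44 and Phf11d were also lower in all 6. Ifit3, an RNA-binding antiviral gene, was past the fold in 5 classes, with 461 and 155 CPM in neutrophil barcodes (−1.57). Ifit1, Ifit3b, Herc6, Ifi209, Ifi213, Ifi27l2a, Oas3, Oasl1, Oasl2, Rsad2, Slfn5, Tor3a, Trim30a and Xaf1 were also lower in 5, and Dhx58, Eif2ak2, Ifit2, Oas2 and Rtp4 in 4. Bst2, the tetherin gene, was lower in the 2 myeloid classes. Mx1 is not used here.

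Other genes of the pathway mostly stayed within the fold, as the receptor and kinase members did. Of 37 such genes, 2, 1, 2, 4, 3 and 4 were lower in CD8 T, CD4 T, B, plasma, monocyte or macrophage and neutrophil barcodes, and 0, 2, 0, 0, 1 and 1 were higher, where 3.95% to 9.55% of all tested genes were lower and 3.75% to 6.38% higher. The list median lay between −0.21 and 0.00. Usp18, which displaces JAK1 from IFNAR2 and is itself an interferon target, was lower in 5 classes, at 97.9 and 43.3 CPM in neutrophil (−1.18, −1.40 to −0.95) and 51.5 and 30.6 in CD8 T barcodes (−0.75, −0.93 to −0.57). Socs3, the inhibitor of cytokine signalling through STAT3, was lower in monocyte or macrophage (59.8 and 34.6 CPM, −0.79) and neutrophil barcodes (114 and 46.8, −1.28). Irf1, a transcription factor more closely tied to interferon gamma, stayed within the fold in all 6 classes, at 382 and 292 CPM in neutrophil barcodes (−0.39, −0.48 to −0.29).

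Ligand transcripts were nearly absent. Of 19 type I and III interferon genes, 15 had 0 UMIs in all 4 libraries. In run 1 the list summed to 2 UMIs in each genotype, with Ifnb1 at 0 and 0, and in run 2 to 184 and 23, of which Ifnb1 gave 177 and 21. By the one-sided 95% limit, a count of 0 in run 1 PEP-WT allows up to 3 UMIs in 77916082. Ifng, the type II ligand, had 3380 UMIs of 77916082 in PEP-WT and 3587 of 56745578 in PEP-619WW of run 1. Its share of all UMIs was thus higher in PEP-619WW, the direction opposite to that of the target list in run 1. In run 2 it had 62 UMIs of 70500076 in PEP-WT and 490 of 55504449 in PEP-619WW.

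The genes whose log2(CPM + 10) over the 12 run 1 profiles was most like that of a member were looked for among 11775 genes with at least 200 UMIs in these profiles. The profiles share libraries and, where gates overlap, barcodes, so Pearson's r is a description. Irf7 had Eif2ak2 (r = 0.97) and Ube2l6 (0.97) among its 3 nearest genes, and over 7 profiles of run 2 these r were 0.86 and 0.88. Stat2 was nearest to Irgm1 (0.95, run 2 0.90), Ier5 and Ly6e, Irf9 to Trim12c (0.98, run 2 0.90), Srsf5 and Trim12a, and Socs1 to Atxn7l3b (0.97, run 2 0.42), Slfn5 and Uba7. Jak1 was nearest to Zc3hav1 (0.98, run 2 0.95), Dock2 (0.97, run 2 0.94) and Cdc14a. For all nearest genes named here r was lower in run 2. It was 0.41 for Ier5, 0.83 for Ly6e, 0.82 for Srsf5, 0.80 for Trim12a and 0.88 for Cdc14a. With Socs1 it was 0.39 for Slfn5 and 0.68 for Uba7. Ifnar1 with Rbbp5 had 0.97 and then 0.10, Ifnar2 with Spic 0.96 and 0.66, and Tyk2 with Blvra 0.95 and −0.53.

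In the 2 large classes of run 2, 13 of 16 pairs of member and class were past the fold with the higher level in PEP-619WW and 0 with the lower. The 5 pairs past the fold in these classes of run 1 were among them. Lymphocytes were nearly absent from its PEP-WT library (28 CD8 T, 12 CD4 T, 2 B and 0 plasma barcodes, against 394, 438, 503 and 15 in PEP-619WW), so only monocyte or macrophage (6488 and 4919) and neutrophil barcodes (590 and 1071) held 50 or more in both genotypes. In monocyte or macrophage barcodes 7 of 8 members were higher past the fold and in neutrophil barcodes 6 of 8, with 0 lower, where 23.6% and 27.5% of all tested genes were higher. The share of all genes lower was 15.1% and 10.6%, so calls in either direction were more frequent than in run 1. In the small CD8 T, CD4 T and B classes 6 of 8, 4 of 8 and 6 of 7 tested members were higher, where 24.2%, 31.4% and 48.8% of all genes were, and 0 were lower, against 10.4%, 12.4% and 23.9%. Nothing is read from these 3 counts, since most members passed the minimum through PEP-619WW alone. The PEP-WT counts were 0 to 62 UMIs per member in CD8 T, 0 to 35 in CD4 T and 0 to 3 in B barcodes, Ifnar2 had a lower CPM in PEP-619WW in CD4 T (116 and 105) and B barcodes (151 and 107), and Stat2 had 0 PEP-WT UMIs in all 3.

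Irf7 measured 31.0 CPM in PEP-WT and 122 in PEP-619WW monocyte or macrophage barcodes of run 2 (1.98, 1.90 to 2.06) and 36.9 and 140.4 in neutrophil barcodes (1.93, 1.58 to 2.29). Stat2 measured 21.9 and 70.8 CPM (1.69, 1.60 to 1.79) and 18.2 and 66.5 (1.87, 1.37 to 2.40). All 4 values of each gene lay below the levels of the same class in both genotypes of run 1. Irf9 was at 30.4 and 72.8 CPM (1.26) and 34.5 and 101 (1.55), and Socs1 at 14.8 and 37.7 (1.35) and 26.8 and 62.9 (1.23).

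The receptors differed less. Ifnar2 stayed within the fold at 185 and 194 CPM in monocyte or macrophage (0.07, 0.02 to 0.11) and 171 and 203 in neutrophil barcodes (0.24, 0.06 to 0.43). Ifnar1 was at 78.0 and 125 CPM (0.68, 0.62 to 0.74), past the fold, and at 75.2 and 112 (0.58, 0.31 to 0.85), within it. For the kinases, Jak1 was at 132 and 203 CPM (0.62) and 163 and 280.01 (0.78), and Tyk2 at 15.7 and 33.0 (1.07) and 16.3 and 27.0 (0.73). Centred on the median of all genes, Ifnar1 (0.57) and Jak1 (0.50) in monocyte or macrophage and Jak1 (0.55) and Tyk2 (0.50) in neutrophil barcodes went inside 1.5-fold.

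The monocyte or macrophage gate of run 2 held different cells in the 2 genotypes. Barcodes with at least 3 UMIs of C1qa, a macrophage complement gene, and no Ly6c2 numbered 4722 in PEP-WT and 942 in PEP-619WW, and those with Ly6c2 and no C1qa numbered 96 and 1386. Within the Ly6c2 barcodes Irf7 was at 222 and 184 CPM, a ratio of −0.28 (−0.55 to 0.01), while Stat2 was at 46.8 and 93.7 (1.00, 0.42 to 1.65), Irf9 at 52.7 and 94.7 (0.85, 0.29 to 1.46) and Socs1 at 27.3 and 53.2 (0.96, 0.20 to 1.84). With Tyk2 (8 UMIs in PEP-WT), 4 of 8 members were higher past the fold against a background of 31.6%. Within the C1qa barcodes Irf7 was at 24.6 and 62.7 CPM (1.35, 1.20 to 1.496), Stat2 at 20.2 and 51.4 (1.35, 1.18 to 1.51) and Ifnar2 at 179 and 179 (0.00, −0.08 to 0.08), and 6 of 8 members were higher against 17.4%. The whole-gate Irf7 ratio of 1.98 was thus larger than that of either subset.

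In the whole gates of run 2 the target list was higher in PEP-619WW, with 38 of 42 genes higher past the fold in monocyte or macrophage and 39 of 41 in neutrophil barcodes (medians 1.33 and 1.57), 0 being lower in either. In Ly6c2 barcodes 14 of 41 were higher and 2 lower, near the background of 31.6%, with a median of 0.41 against 0.26 for all tested genes. In C1qa barcodes 35 of 42 were higher against 17.4%, with medians of 1.04 and 0.12. Of the other pathway genes 25 of 36 and 22 of 34 were higher in monocyte or macrophage and neutrophil barcodes and 0 lower, where 23.6% and 27.5% of all tested genes were higher. The list of CD8 T markers was 5.67 CPM in PEP-WT and 122 in PEP-619WW monocyte or macrophage barcodes of run 2, and the melanocyte list 105 and 49.97 CPM in neutrophil barcodes. The part of these contents in the member ratios was not tested, and genotype and run-specific content cannot be told apart with 1 library each.

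**Figure D5:**
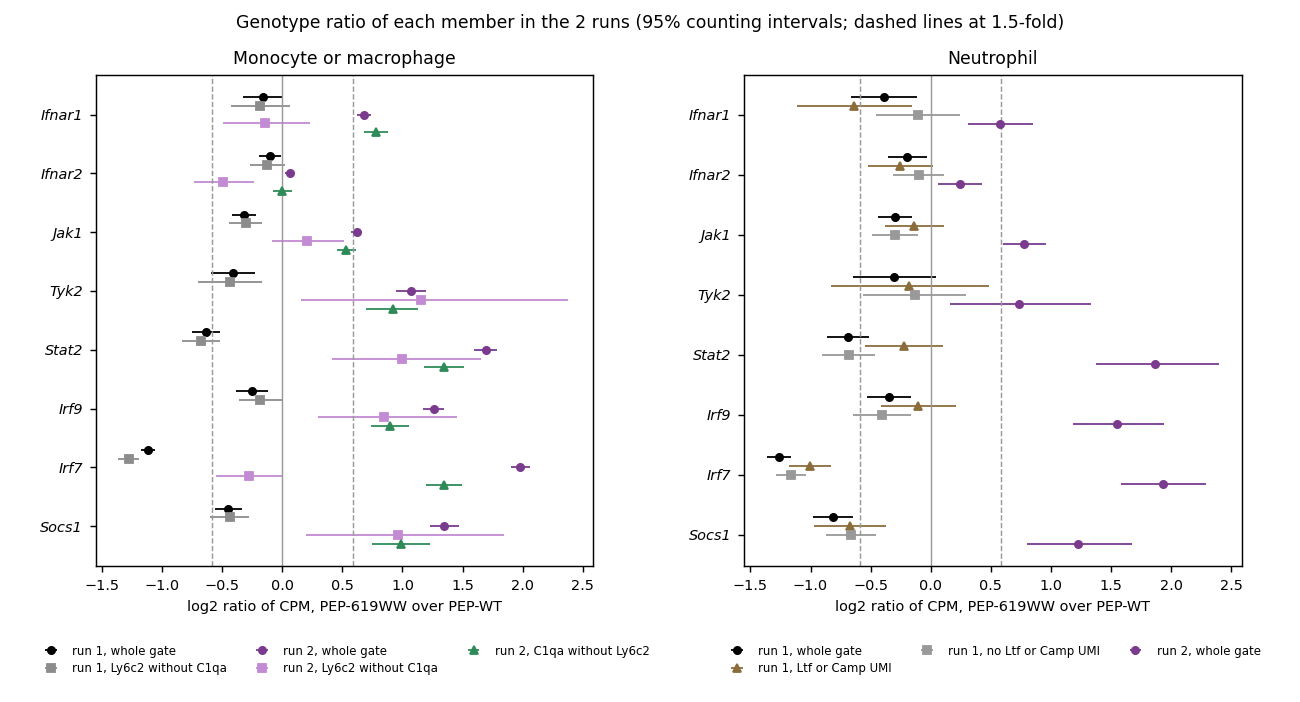
Log2 ratio of CPM, PEP-619WW over PEP-WT, of the 8 members in monocyte or macrophage barcodes (left) and neutrophil barcodes (right) of both runs, whole gates and subsets, with exact 95% counting intervals and dashed lines at 1.5-fold. Run 1 barcodes with C1qa and no Ly6c2 (21 and 9) are not plotted. The run 1 points of Irf7 shown lie left of 0 and the whole-gate run 2 points right of it (−1.11 and 1.98 on the left panel), while Irf7 in run 2 barcodes with Ly6c2 and no C1qa lies at −0.28.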

How the data were processed

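UMI counts per gene and barcode, which the authors made with Cell Ranger on the mouse genome mm10 (version 6.0.0 per the submitters' processing notes, whereas the study's methods name a later version), were deposited as 4 tables, 1 per genotype and run. They were used as raw counts, and no other sample's columns were present. Gene identifiers were matched to symbols (32158 of 32285). Barcodes were gated on marker UMIs, UMIs were summed per class, and CPM, exact Poisson and binomial intervals and the conditional binomial interval of the ratio of summed counts were computed in Python 3.11.15 with numpy 2.4.6, scipy 1.17.1 and pandas 2.3.3. The ratio interval was tested on simulated data. Depth per library was 55504449 to 77916082 UMIs, but droplets share free RNA, no doublets were removed, and intervals cover counting error only. Barcodes were thinned to 1000 UMIs where shares were compared. The named genes were the 8 members, the 3 most similar genes of each, list genes past the fold in the same direction in at least 4 classes of run 1, and Usp18, Socs3, Irf1, Isg15, Ifit3, Mx1 and Bst2. 1 similar gene of Irf7 and 1 marker list are not reported here. The members and lists were chosen with earlier results of these data known. Promoters and gene coordinates were read from RefSeq and GENCODE tables of GRCm38.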

Additional observations from a re-analysis of the deposited data

Results flagged for a closer look

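5 pairs of member and class were past the fold in opposite directions in the 2 runs, and the difference was not tested, since each run had 1 library per genotype. The runs held unlike cells, and that run 2 came from the same spleens is not established. Run 2 held 431 PEP-WT and 44 PEP-619WW barcodes with at least 3 melanocyte genes, and run 1 held 0 and 0. Stat2 had log2 ratios of −0.63 in run 1 and 1.69 in run 2 in monocyte or macrophage barcodes, and −0.69 and 1.87 in neutrophil barcodes. Irf7 had −1.11 and 1.98 in monocyte or macrophage barcodes, and −1.26 and 1.93 in neutrophil barcodes. The run 2 monocyte or macrophage gate held unlike cells in the genotypes. In its barcodes with Ly6c2 and no C1qa (96 and 1386) Irf7 had −0.28 (−0.55 to 0.01), against −1.28 in the same subset of run 1. For Irf7 the opposite directions were thus not seen in this subset. For Stat2 they were, at −0.67 in run 1 and 1.00 (0.42 to 1.65) in run 2, both past the fold. Socs1 had −0.81 and 1.23 in neutrophil barcodes.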

How the results depend on the processing

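No paired analysis was possible because each genotype had 1 library per run. In run 1 the pairs higher past the fold went from 0 to 2 with barcodes of 1 gate (Tyk2 0.60 and Stat2 0.64, both in CD4 T), and the pairs lower went from 12 to 4 at 2-fold in place of 1.5-fold. In run 2 the 29 of 39 pairs higher went to 14 of 18 with thinning to 1000 UMIs and to 13 of 16 in classes with 50 barcodes per genotype, an alternative chosen after seeing the data, as was the one on hemoglobin. The pairs lower in run 2 went from 0 to 1 with thinning, 3 with stricter gates and 1 when centred. Thinning reversed Ifnar1 (−3.57) and Jak1 (−1.52) in B barcodes of run 2, where PEP-WT had 2 barcodes. Of the ratios under the alternatives, 568 moved by less than their counting interval, 100 by more and 2 reversed. Levels were less stable. Of the checks on a member's level in its highest class, 42 moved and 22 stayed the same. These were 22 and 10 with thinning to 1000 UMIs and 20 and 12 with barcodes of 1 gate. In run 1, 8 calls stayed past 1.5-fold under every alternative run on their ratios, 9 in the T classes and 8 in the others. These were the calls other than Irf7 in CD4 T, Socs1 in plasma and Stat2 in the myeloid classes. The 2-fold cutoff is not among these alternatives, and the 4 calls that stayed at it were all of Irf7. Depth limits the small gates, and 1 library per genotype limits every comparison.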
